A study of Mus musculus with 18 samples.

Results

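The genes described here are 38 genes that fat cells of white adipose tissue are known for, out of 28919 genes and unnamed transcripts measured in mouse mammary tumours and normal mammary glands. They were listed by name and were chosen by their readout, since their low values in the tumours against normal gland were known when the list was drawn up, so those falls are given below as a description with no test. Where a gene had several probes, the one that was brightest on average on the knock-in arrays stands for it, and all 38 genes were found. Among them are 6 genes of secreted products, 2 transcription factors, 3 lipid droplet proteins, 6 genes of uptake and transport, 7 of triglyceride synthesis, 5 of lipolysis and its control, 5 enzymes of fuel and hormone metabolism and 4 other genes of fat tissue.

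RNA came from whole frozen tissue of female FVB/N mice, on 2-colour oligonucleotide arrays. The arrays of the knock-in tumours are filed under a different array platform record from those of the other tissues. The tested tissues were 5 single ErbB2 knock-in (KI) tumours and 2 pools of NIC tumours, each pool made from equal amounts of 5 tumours. They were set against 2 normal mammary glands. Each of these 9 RNA samples was hybridised together with a commercial mouse reference RNA, once in Cy5 and once in Cy3, so that 18 arrays were used. The labels name the genotypes only as ErbB2 knock-in and NIC, and give neither ages nor the promoter that drives the oncogene. A level below is the log2 ratio of the tissue over the reference RNA, averaged over the dye pair, so that 0 means as much as in the reference and 1 unit is a 2-fold step. A level is relative to the reference for that gene, and levels of different genes are not compared.

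White adipocytes store triglyceride in a single large droplet and release fatty acids from it when other tissues need fuel. The nuclear receptor PPARγ, encoded by Pparg, and the factor C/EBPα, encoded by Cebpa, switch on and maintain the genes of lipid uptake, triglyceride synthesis, droplet coating and hormone secretion. In the mouse mammary gland the milk ducts lie within a fat pad, so RNA of a whole normal gland holds much adipocyte RNA. Because whole tissue was measured, fewer fat cells and less RNA of these genes per cell cannot be told apart in any result below.

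The upstream sequences of the members were read to show where the letters bound by those factors occur next to genes that move together. RefSeq promoter windows (assembly GRCm38.p6, 250 bases before to 50 bases after the start) matched 26 of the 38 members. A pair of AGGNCA copies in the same orientation 1 base apart, the form bound by PPARγ with its partner RXR, were found on either strand in 0 of the 26, against 0.451% of all 27025 genes with a window. The letters TTGCNNAA, a form bound by C/EBP factors, were found on either strand in 5 of 26 members (19.2%), against 12.2% of all genes. These 5 were Lep, Plin1, Cidec, Rbp4 and Pparg. A match is a description of letters and does not show that a factor binds. The 250 bases before 1 start of each of these genes are given 5′ to 3′ on the gene's strand, with TTGCNNAA or its reverse complement in capitals, followed by those of Pdk4, the member with the largest difference between the tumour models, which holds neither motif.
Lep, chr6:29059971-29060220, plus strand: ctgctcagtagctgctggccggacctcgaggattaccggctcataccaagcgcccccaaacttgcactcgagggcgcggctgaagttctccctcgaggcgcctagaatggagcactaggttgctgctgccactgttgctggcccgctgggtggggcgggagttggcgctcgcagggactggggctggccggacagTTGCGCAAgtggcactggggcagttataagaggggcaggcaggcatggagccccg
Plin1, chr7:79732777-79733026, minus strand: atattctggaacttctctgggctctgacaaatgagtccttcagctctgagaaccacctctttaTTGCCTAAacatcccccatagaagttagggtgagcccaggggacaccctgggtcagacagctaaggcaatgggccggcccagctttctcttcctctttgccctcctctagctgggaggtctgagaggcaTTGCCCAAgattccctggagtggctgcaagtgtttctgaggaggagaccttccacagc
Cidec, chr6:113434765-113435014, minus strand: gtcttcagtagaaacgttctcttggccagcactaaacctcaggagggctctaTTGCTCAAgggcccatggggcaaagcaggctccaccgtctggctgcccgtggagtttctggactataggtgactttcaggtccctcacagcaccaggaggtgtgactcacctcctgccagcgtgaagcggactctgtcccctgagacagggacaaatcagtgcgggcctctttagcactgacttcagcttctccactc
Rbp4, chr19:38124812-38125061, minus strand: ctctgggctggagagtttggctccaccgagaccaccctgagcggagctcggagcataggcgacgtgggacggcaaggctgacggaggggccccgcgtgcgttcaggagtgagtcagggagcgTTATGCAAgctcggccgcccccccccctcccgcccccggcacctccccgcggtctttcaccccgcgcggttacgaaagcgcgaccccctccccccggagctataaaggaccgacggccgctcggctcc
Pparg, chr6:115421816-115422065, plus strand: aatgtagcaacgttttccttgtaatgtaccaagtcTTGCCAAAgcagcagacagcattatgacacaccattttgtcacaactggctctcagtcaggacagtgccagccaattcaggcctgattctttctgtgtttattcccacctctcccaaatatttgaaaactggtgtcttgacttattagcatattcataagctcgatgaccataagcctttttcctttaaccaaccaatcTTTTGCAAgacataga
Pdk4, chr6:5496279-5496528, minus strand: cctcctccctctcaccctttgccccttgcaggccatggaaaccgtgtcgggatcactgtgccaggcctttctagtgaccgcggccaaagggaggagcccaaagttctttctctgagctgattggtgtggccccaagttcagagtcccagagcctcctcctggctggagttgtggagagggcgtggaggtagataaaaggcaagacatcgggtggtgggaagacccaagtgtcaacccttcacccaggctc

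The match in the Lep sequence begins 55 bases before the start and reads the same on both strands. Plin1 holds 2 matches, which begin 187 and 58 bases before the start, and Pparg holds 2 as well, at 215 and 16 bases before it. Cidec holds 1 match at 198 bases and Rbp4 1 match at 128 bases before the start.

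In the tumours the genes of white fat stood low together. The median level over the 38 members was between 0.016 and 0.31 in the KI tumours and was 0.30 and 0.052 in the NIC pools, against 4.22 and 3.81 in the normal glands. As group means, 37 of 38 members were lower in KI tumours and 37 of 38 were lower in NIC pools than in normal gland, and both normal glands lay above all 7 tumour samples for 35 members, where 26.4% of all genes had this pattern. The median difference over members was −3.46 for KI tumours minus normal and −3.74 for NIC pools minus normal, against −0.026 and −0.057 over all genes. In KI tumours 34 members were called lower, against 24.9% of all genes, and in NIC pools 29 were called lower, against 9.80%, with a call at an adjusted p under 0.05 in limma. Nothing is read from those counts, because the members were listed for these falls. The pair of comparisons also shares the 2 normal glands. The KI arrays lie in a deposited table of their own, under their own array platform record, so platform record, table and KI group cannot be told apart. With all columns scaled to 1 spread the medians were −1.81 for KI and −2.14 for NIC. Without either NIC pool 0 members were called in NIC, while the median difference stayed between −3.98 and −3.50 over all samples left out in turn, and with the tissue in Cy3 alone 15 were called. The heat map of all members by RNA sample shows the 2 normal columns in red from top to bottom and the tumour columns near white, with a few exceptions that are taken up below.

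**Figure D1:**
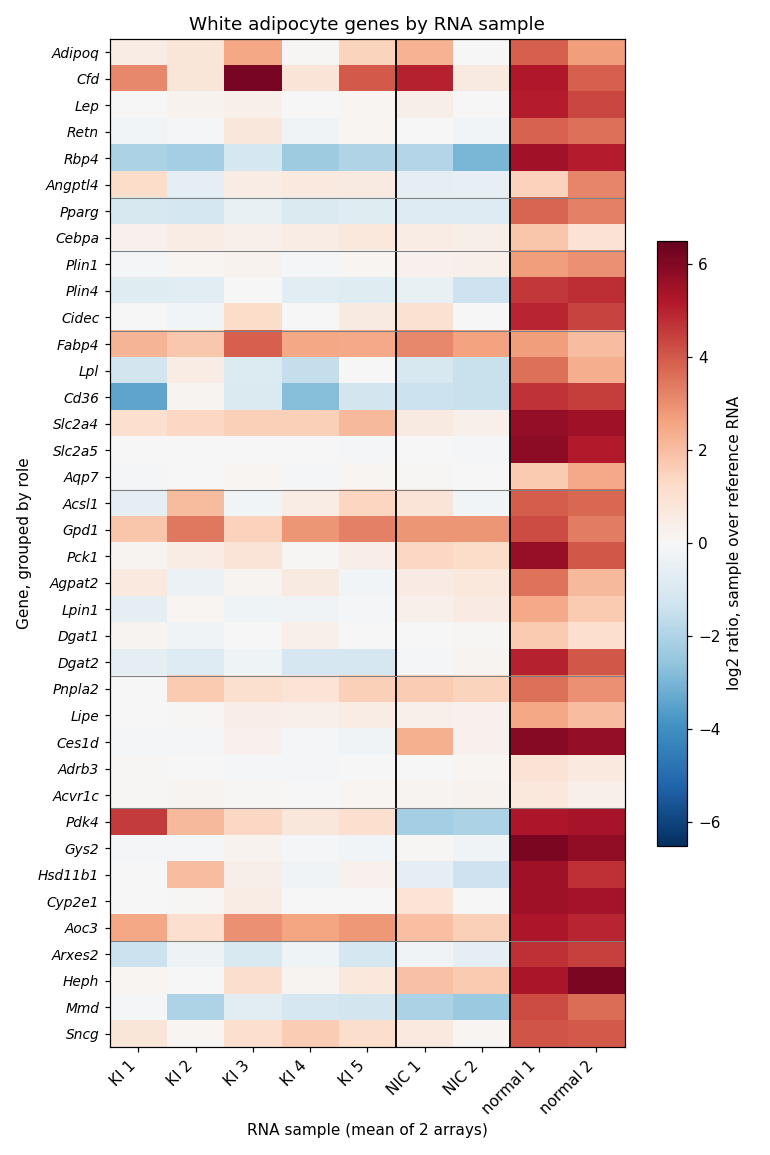
Heat map of the 38 white adipocyte genes (rows, grouped by role) in each RNA sample (columns: 5 KI tumours, 2 NIC pools, 2 normal glands), coloured by the log2 ratio of sample over reference RNA. The normal glands stand above all tumour samples for 35 genes, while Cfd, Fabp4 and Gpd1 overlap.

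Other tissue components moved beside them. The median of 10 epithelial markers was between 2.29 and 3.05 in KI tumours and 2.43 and 2.92 in NIC pools, against 0.083 and 0.10 in normal glands. Fibroblast markers (10) had a median between −1.48 and 0.28 in KI tumours and of −0.79 and −1.72 in NIC pools, against 0.63 and 0.50 in normal glands, and endothelial markers (10) one between 0.94 and 2.45 and of 1.97 and 1.71, against 2.69 and 3.07. Of 10 brown fat markers, 6 were called lower and 0 higher in KI tumours and 4 lower and 0 higher in NIC pools (limma, adjusted p under 0.05). They did not move as a block. Ucp1, the uncoupling protein that defines brown fat, was at 0.01, −0.08, 0.13, 0.09 and 0.22 in KI tumours and at −0.10 in both NIC pools, against 4.14 and 3.56 in normal glands. Cox8b, a respiratory chain subunit of brown fat, was between −0.04 and 0.99 in KI tumours and at 3.46 and 3.31 in NIC pools, against 5.65 and 4.83 in normal glands. Cidea, which milk-making epithelium also uses, was between 1.15 and 4.04 in KI tumours and at 2.09 and 2.46 in NIC pools, against 4.87 and 4.22 in normal glands. Ppargc1a (−0.29 in KI, 0.50 in NIC), Dio2 (0.11 and −0.47) and Prdm16 (−0.03 and −0.01) were not called in either. Many members are used by brown fat as well, so their levels in the normal glands cannot be assigned to white fat alone, and the part of these components in the members' falls was not tested.

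**Figure D2:**
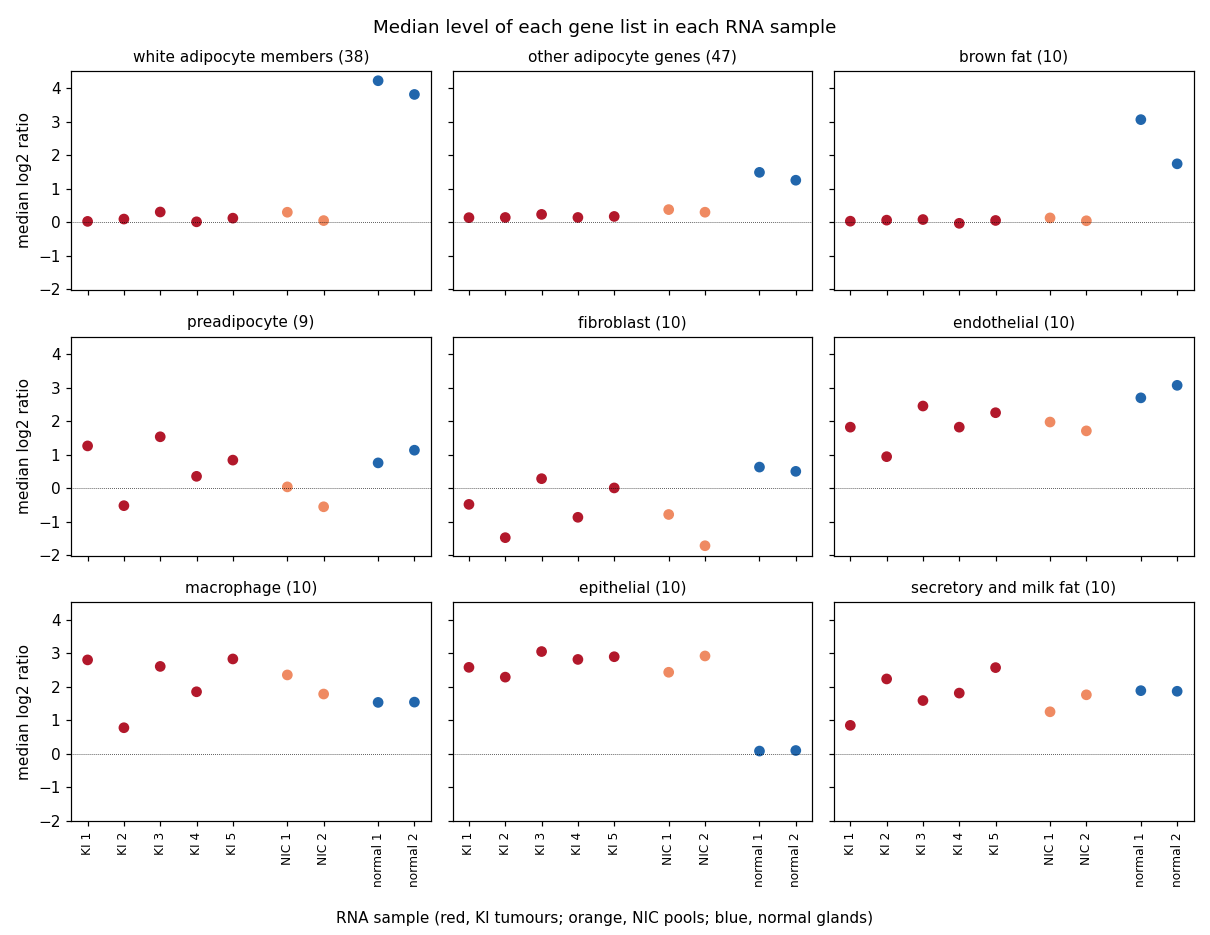
Median log2 ratio of sample over reference (vertical axis) for the members, the other adipocyte genes and 7 lists of cell type markers in each RNA sample. The members and the brown fat list are near 0 in all 7 tumour samples, while the epithelial list is between 2.29 and 3.05 there and at 0.083 and 0.10 in normal glands.

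Among the secreted products, the genes of leptin, resistin and the retinol carrier stood several units below the glands in every tumour sample. Lep, the hormone that reports fat stores to the brain, was at 0.01, 0.23, 0.35, 0.02 and 0.11 in KI tumours and at 0.38 and 0.04 in NIC pools, against 5.12 and 4.33 in normal glands. That is a mean 23.9-fold lower in KI tumours and 22.8-fold lower in NIC pools, with no overlap between tumours and glands. Retn, resistin, was between −0.21 and 0.74 in KI tumours and at 0.04 and −0.20 in NIC pools, against 3.82 and 3.60 in normal glands. Rbp4, a carrier of vitamin A in blood that fat also secretes, had the largest mean fall of all members. Its levels were −2.05, −2.22, −1.14, −2.29 and −1.96 in KI tumours and −1.89 and −2.97 in NIC pools, against 5.44 and 5.11 in normal glands, a difference of −7.21 for KI tumours and −7.71 for NIC pools. Angptl4, an inhibitor of lipoprotein lipase, was between −0.60 and 1.19 in KI tumours and at −0.66 and −0.55 in NIC pools, against 1.52 and 3.16 in normal glands.

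The adiponectin and adipsin genes varied widely from tumour to tumour. Adipoq, the adiponectin gene and one of the most restricted markers of fat cells, was at 0.50, 0.78, 2.49, 0.05 and 1.45 in KI tumours and at 2.24 and 0.00 in NIC pools, against 3.88 and 2.69 in normal glands. As means of the dye pair all tumour samples lay below both glands, KI tumour 3 being nearest at 0.20 below gland 2. With the tissue in Cy3, KI tumour 3 (2.47) and NIC pool 1 (2.74) lay above gland 2 (1.67), which read 3.72 in Cy5. Cfd, adipsin or complement factor D, was at 3.10, 0.81, 6.18, 0.83 and 4.0 in KI tumours and at 4.99 and 0.59 in NIC pools, against 5.18 and 3.88 in normal glands. KI tumour 3 stood above both glands for Cfd, and the tumours spanned 5.37 log2 units, the widest range of any member among KI tumours. The dye pair behind the value of KI tumour 3 was 6.38 and 5.98. No KI tumour's pair disagreed by more than 0.51 for Cfd, so the spread between KI tumours was many times that between their arrays. The arrays of glands 1 and 2 disagreed by 1.89 and 3.42.

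Of the transcription factors, Pparg lay below the level of the reference RNA in all tumours. Its levels were −1.06, −1.13, −0.48, −0.93 and −0.79 in KI tumours and −0.83 and −0.85 in NIC pools, against 3.76 and 3.29 in normal glands, so that the tumour samples lay within 1 unit of each other and far below the glands (differences of −4.41 for KI and −4.37 for NIC). Cebpa was between 0.30 and 0.67 in KI tumours and at 0.48 and 0.40 in NIC pools, against 1.78 and 0.94 in normal glands. The Cebpa differences of −0.91 in KI and −0.92 in NIC rest on the probe chosen. The dimmer probe of Cebpa was higher in tumours, by 0.48 in KI and 0.56 in NIC.

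All 3 lipid droplet genes were far below the glands. Plin1, perilipin, the coat protein that guards the droplet against lipases, was between −0.12 and 0.21 in KI tumours and at 0.26 and 0.31 in NIC pools, against 2.73 and 3.0 in normal glands. Plin4, another coat protein, was at −0.78, −0.67, −0.015, −0.76 and −0.80 in KI tumours and at −0.49 and −1.35 in NIC pools, against 4.59 and 4.79 in normal glands. The value of NIC pool 1 is the mean of −1.64 and 0.65 on its 2 arrays, a wider disagreement than the pools' own difference. Cidec, which lets droplets fuse into a single large one, was at 0.04, −0.16, 1.18, −0.05 and 0.58 in KI tumours and at 0.97 and −0.01 in NIC pools, against 4.93 and 4.39 in normal glands. KI tumour 3 and NIC pool 1 were again the highest of their groups.

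Among the uptake genes Fabp4 overlapped between tumours and glands, and the other 5 did not. Fabp4, the fatty acid-binding protein of fat cells, which capillary endothelium and macrophages also make, was at 2.23, 1.77, 3.86, 2.51 and 2.44 in KI tumours and at 3.13 and 2.60 in NIC pools, against 2.70 and 1.99 in normal glands. It was the only member with a higher mean in tumours (0.22 in KI, 0.52 in NIC), and this rests on the dye and, for KI, on the probe. Its other probes read −0.26 and 0.83 for KI minus normal and 0.07 and 0.84 for NIC minus normal. With the tissue in Cy5, Fabp4 was lower in KI tumours by −1.66 and in NIC pools by −1.46, and all 38 members were lower in both. With the tissue in Cy3 it was higher, by 2.10 and 2.51, because the glands read 0.86 and −0.37 in Cy3 and 4.54 and 4.34 in Cy5. The mean dye disagreement of both glands exceeded 2 units for 3 members, Cfd, Fabp4 and Lpl, where its median was 1.07 over members and 0.28 over all genes.

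Lpl, the lipase that frees fatty acids from lipoproteins, was at −1.21, 0.49, −0.89, −1.55 and 0.03 in KI tumours and at −1.02 and −1.45 in NIC pools, against 3.58 and 2.34 in normal glands. Cd36, the fatty acid translocase, had levels of −3.41, 0.16, −0.93, −2.78 and −1.18 in KI tumours and of −1.42 and −1.45 in NIC pools, against 4.69 and 4.47 in normal glands. The Cd36 value of NIC pool 1 is the mean of −2.67 and −0.16 on its 2 arrays, so the closeness of the pools rests on averaging. KI tumours 2 and 5 were the upper pair of KI tumours for Lpl, and KI tumours 1 and 4 the lower pair for both genes. Slc2a4, the glucose transporter that insulin brings to the surface, was at 1.08, 1.37, 1.57, 1.55 and 2.11 in KI tumours and at 0.59 and 0.34 in NIC pools, against 5.73 and 5.51 in normal glands. Slc2a5, a fructose transporter, was within 0.13 of the reference in all tumours, against 5.81 and 5.17 in normal glands. Its tumour channel was well above background on 5 of 10 KI arrays, so the fall of −5.53 in KI tumours is only as deep as the array could read. Aqp7, the channel through which glycerol leaves the fat cell, was between −0.07 and 0.13 in KI tumours and at 0.09 and −0.03 in NIC pools, against 1.69 and 2.48 in normal glands.

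Genes of triglyceride synthesis differed among themselves in how much remained. Gpd1, which makes glycerol phosphate, the backbone of triglyceride, was at 1.81, 3.45, 1.51, 2.87 and 3.29 in KI tumours and at 2.89 and 2.88 in NIC pools, against 4.23 and 3.31 in normal glands. KI tumour 2 exceeded the lower gland, and the dimmer probe of Gpd1 was 0.58 higher in NIC pools. Acsl1, which activates fatty acids, was at −0.63, 2.07, −0.16, 0.46 and 1.41 in KI tumours and at 0.83 and −0.19 in NIC pools, against 3.92 and 3.75 in normal glands. Both Gpd1 and Acsl1 were highest in KI tumours 2 and 5. Dgat2, an enzyme of the last step, was between −1.11 and −0.28 in KI tumours and at −0.09 and 0.19 in NIC pools, against 5.01 and 4.05 in normal glands. Its counterpart Dgat1, which many tissues use, was between −0.24 and 0.34 in KI tumours and at 0.04 and 0.06 in NIC pools, against 1.72 and 1.09 in normal glands. The dimmer probe of Dgat1 differed less, by −0.57 in KI and −0.30 in NIC. On that probe gland 2 (−0.16) lay below both NIC pools (0.25 and 0.29), so the lack of overlap rests on the probe chosen. Pck1, which supplies glycerol phosphate from small precursors in fat, was between 0.08 and 0.86 in KI tumours and at 1.36 and 1.18 in NIC pools, against 5.68 and 4.05 in normal glands. Agpat2 and the phosphatidate phosphatase gene Lpin1 act in between. Their mean differences were −2.62 and −2.29 in KI tumours and −2.18 and −1.65 in NIC pools.

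The 5 genes of lipolysis and its control had lower means in both tumour groups. Pnpla2, the lipase of the first step, was at 0.03, 1.68, 1.02, 0.89 and 1.56 in KI tumours and at 1.66 and 1.47 in NIC pools, against 3.57 and 2.98 in normal glands. Lipe, hormone-sensitive lipase, was between 0.04 and 0.48 in KI tumours and at 0.36 and 0.25 in NIC pools, against 2.51 and 2.02 in normal glands. Of its 3 probes 1 read −0.03 and −0.05 for KI and NIC minus normal, and the remaining probe −2.69 and −2.94. The flat probe, annotated on the array as 4933403G17Rik, was near 0 in the glands too (−0.07 and 0.14). Ces1d, a carboxylesterase of fat and liver, was between −0.21 and 0.30 in KI tumours and at 2.32 and 0.29 in NIC pools, against 5.90 and 5.73 in normal glands. The adrenergic receptor gene Adrb3 was 0.80 lower in KI tumours and 0.69 lower in NIC pools. Acvr1c, an activin-type receptor that curbs lipolysis, was 0.41 lower in KI tumours and 0.31 lower in NIC pools. Here too the probe mattered, because the other 2 probes of Acvr1c read −1.27 and −2.87 for KI and −1.26 and −3.04 for NIC.

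The 5 fuel and hormone enzymes had lower means in both tumour groups than in normal gland. Pdk4, a kinase that shuts pyruvate out of oxidation in fasting, was at 4.53, 2.12, 1.36, 0.71 and 1.11 in KI tumours and at −2.20 and −2.07 in NIC pools, against 5.24 and 5.34 in normal glands. It was the member whose KI tumours stood furthest above the NIC pools. Hsd11b1, which regenerates active glucocorticoid, was at −0.02, 1.98, 0.36, −0.25 and 0.26 in KI tumours and at −0.64 and −1.34 in NIC pools, against 5.49 and 4.76 in normal glands. Gys2, a glycogen synthase best known from liver, was between −0.15 and 0.24 in KI tumours and at 0.10 and −0.21 in NIC pools, against 6.13 and 5.75 in normal glands. Cyp2e1, a cytochrome of liver and fat, was between 0.01 and 0.50 in KI tumours and at 0.87 and 0.01 in NIC pools, against 5.51 and 5.39 in normal glands. Its tumour channel was well above background on 6 of 10 KI arrays and its reference channel on 1. Aoc3, an amine oxidase on fat and vessel cells, was at 2.54, 1.10, 2.98, 2.57 and 2.83 in KI tumours and at 1.94 and 1.57 in NIC pools, against 5.27 and 4.97 in normal glands.

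The remaining genes of fat tissue were Arxes2, a gene induced in fat cell differentiation, Heph, a copper oxidase that helps export iron, Mmd, a membrane protein first found in maturing macrophages, and the synuclein gene Sncg. Mmd was at −0.13, −1.98, −0.75, −1.12 and −1.21 in KI tumours and at −2.06 and −2.43 in NIC pools, against 4.22 and 3.61 in normal glands. Heph was at 0.14, 0.01, 1.12, 0.20 and 0.69 in KI tumours and at 1.90 and 1.69 in NIC pools, against 5.29 and 6.12 in normal glands. Its other probe showed differences of only −0.87 in KI and −0.85 in NIC. Arxes2 lay between −1.38 and −0.28 in KI tumours and at −0.24 and −0.60 in NIC pools, against 4.73 and 4.47 in normal glands. Sncg lay between 0.11 and 1.63 in KI tumours and at 0.62 and 0.12 in NIC pools, against 4.10 and 4.01 in normal glands.

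How deep a fall could be read depended on the signal over background. On the KI arrays 36 of 38 members were well above background in both channels on all 10 arrays, the exceptions being Slc2a5 and Cyp2e1, and none was saturated, while 94.1% of all genes were well above background in the tumour channel. In all 7 tumour samples 9 members lay within 0.5 log2 units of the reference (Adrb3, Aqp7, Slc2a5, Acvr1c, Gys2, Plin1, Dgat1, Lep and Lipe), and 6 of these 9 had a signal below the median of all genes. Signals of the normal and NIC arrays were not used here. Of the 17 members with several probes, all probes were lower in 15 for KI tumours and in 14 for NIC pools, and in 9 the probes spanned more than 1 unit for NIC minus normal.

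The comparison of KI tumours with NIC pools asks whether the tumour models differ in what they keep of the fat cell genes. It was not used in listing the members. Over the 38 members the median difference was −0.032, against 0.0034 over all genes. The plot of differences between KI tumours and NIC pools shows most members within 1 standard error or so of 0. Only 2 members were called, both higher in KI tumours (5.26% of members, against 2.92% of all genes higher), and 0 were called lower, against 3.28% of all genes. These shares are close to the background. At an unadjusted p under 0.05 in limma 4 members were lower and 4 higher, where 6409 of all 28919 genes passed in either direction. In a fit of single arrays with a random block for each RNA 1 member was called lower and 3 higher. No share of all genes is given for that fit, so nothing is read from its counts. Pdk4 was 4.10 ± 0.93 (SE) higher in KI tumours, 17.2-fold (adjusted p = 0.0471, limma with Benjamini-Hochberg adjustment over all genes). Slc2a4 was 1.07 ± 0.25 higher, 2.10-fold (adjusted p = 0.0477, the same fit). In both genes all 5 KI tumours stood above both NIC pools.

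These calls are marginal. Over the alternative settings the Pdk4 difference was between 3.46 and 4.41 with an adjusted p of up to 0.221, past the threshold in 6 of 15 settings. Its call was lost without NIC pool 1 or 2 (adjusted p = 0.211 and 0.221, limma) and without KI tumour 2, 3, 4 or 5 (adjusted p between 0.0538 and 0.0788). It is the member with the widest spread among KI tumours after Cfd (3.82 units, with KI tumour 1 highest). The Slc2a4 difference was between 0.44 and 1.21 with an adjusted p of up to 0.274, past it in 5 of 14, and its call was lost without NIC pool 1 or 2 (adjusted p = 0.158 and 0.274, limma) and without KI tumour 2, 3 or 4 (adjusted p between 0.0565 and 0.0864). It came to 0.44 when the KI values were taken from the scanner intensities. KI tumours and NIC pools lie in separate deposited tables under different array platform records, so platform record, table and tumour model cannot be told apart. Both genes are also used by muscle, and the median level of 10 skeletal muscle markers was between −0.50 and 0.73 in KI tumours, against −0.90 and −0.81 in NIC pools, with 0 of the 10 called. Its part in the difference was not tested.

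**Figure D3:**
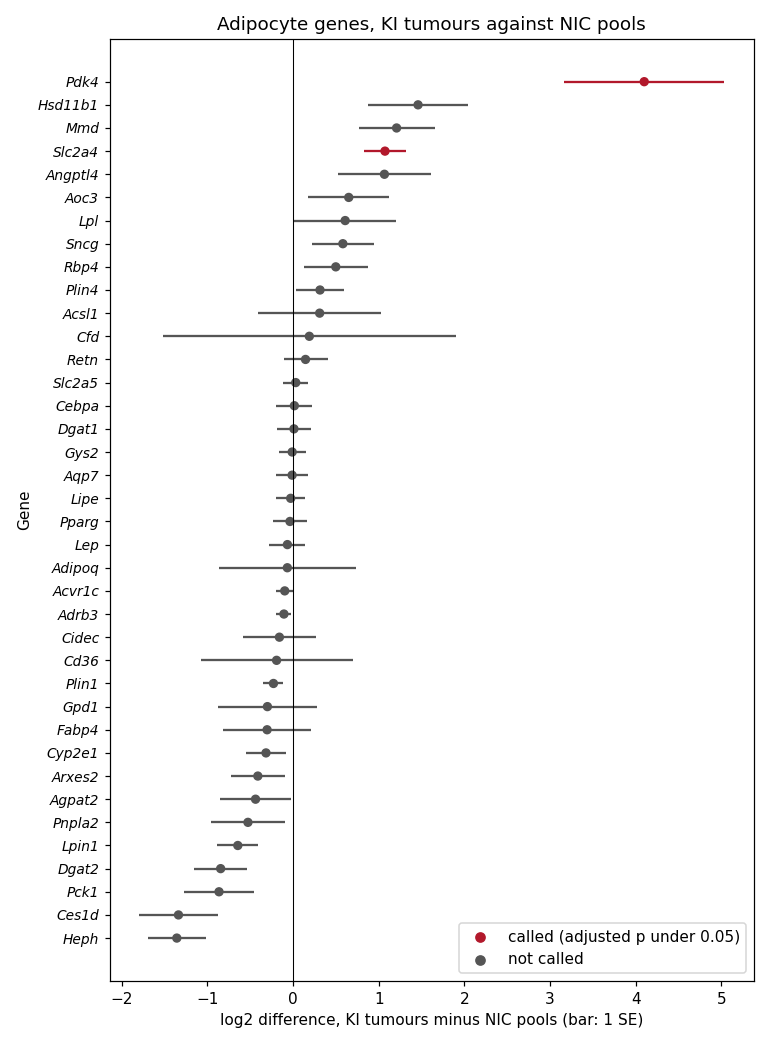
Log2 difference, KI tumours (5) minus NIC pools (2), for each of the 38 genes, with bars of 1 standard error from the limma fit of all 9 RNA samples. Pdk4 (4.10) and Slc2a4 (1.07) passed an adjusted p of 0.05, and 36 genes did not.

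Other large differences missed the threshold. For Heph the difference was −1.36 ± 0.34 (adjusted p = 0.0617, limma), all 5 KI tumours lying below both NIC pools, and without KI tumour 3 it was −1.53 (adjusted p = 0.035, limma). This rests on the probe chosen, because the dimmer probe of Heph read only −0.026 for KI minus NIC. For Ces1d the difference was −1.34 ± 0.46 (adjusted p = 0.140, limma), but the NIC pools themselves stood 2.03 units apart, and without NIC pool 2 it was −2.35 (adjusted p = 0.0051, limma). Pck1 differed by −0.87 ± 0.40 (adjusted p = 0.265, limma), with all KI tumours below both pools. On the other side Hsd11b1 differed by 1.46 ± 0.58 (adjusted p = 0.196, limma) and Mmd by 1.21 ± 0.45 (adjusted p = 0.165, limma), with all KI tumours above both pools in each. In all, KI tumours lay wholly above the NIC pools for 4 members (Slc2a4, Pdk4, Hsd11b1 and Mmd), where 16.4% of all genes did, and wholly below for 5 (Plin1, Pck1, Lpin1, Dgat2 and Heph), where 14.7% did. For Pparg the difference was −0.037 ± 0.19, for Lep −0.067 ± 0.21 and for Cebpa 0.015 ± 0.21, and their 95% intervals from the fit reach no further than 1.40-fold, 1.47-fold and 1.42-fold. For Adipoq the difference was −0.067 ± 0.80 with an interval of −1.94 to 1.80, and for Cfd it was 0.19 ± 1.71 with an interval of −3.80 to 4.18, so changes of several-fold in either direction were not detectable for these.

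Single KI tumours differed in their levels of several members. Over the 5 tumours 20 members spanned more than 1 log2 unit, the widest being Cfd (5.37), Pdk4 (3.82), Cd36 (3.57), Acsl1 (2.69) and Adipoq (2.44). With the KI values taken from the scanner intensities 13 members spanned more than 1 unit. The share of all genes with such a range was not computed, so nothing is read from these counts. The median disagreement of a dye pair was between 0.17 and 0.18 log2 units in each tumour. KI tumour 3 was the highest for 17 members, where it was the highest for 24.8% of all genes. These 17 were the adipokines Adipoq, Cfd, Lep, Retn and Rbp4, all 3 droplet genes, Pparg and Fabp4, with Pck1, Dgat2, Ces1d, Gys2, Cyp2e1, Aoc3 and Heph. KI tumour 2 was the highest for 8 members, which is no more than its share of all genes (24.2%). They were the uptake and synthesis genes Lpl, Cd36, Acsl1, Gpd1 and Lpin1, with Pnpla2, Acvr1c and Hsd11b1, and KI tumour 1 was the highest for 5 members, Pdk4, Angptl4, Agpat2, Adrb3 and Mmd, against 20.5% of all genes. In the plot of 12 genes by RNA sample the upper row peaks in KI tumour 3 and the lower row, Pdk4 aside, in KI tumour 2.

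**Figure D4:**
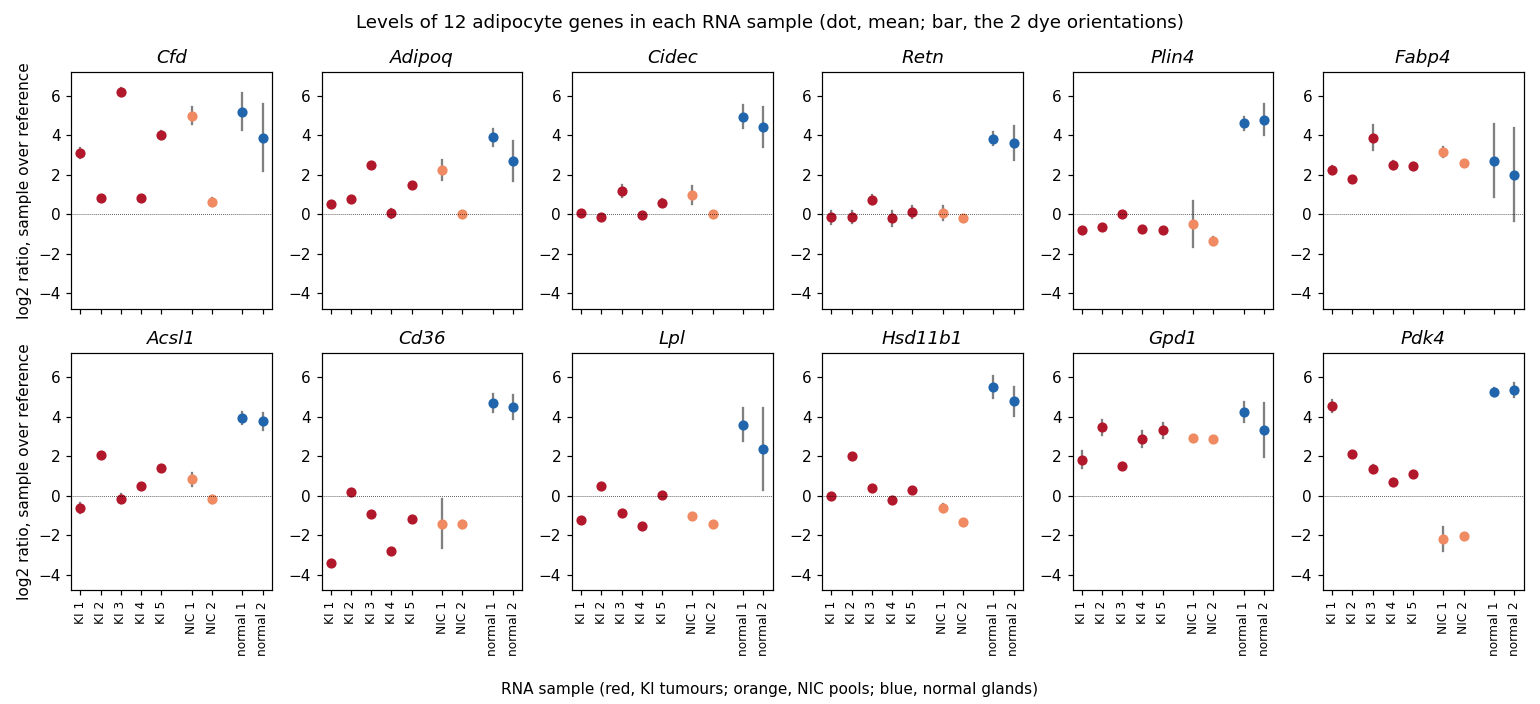
Log2 ratio of sample over reference (vertical axis) for 12 white adipocyte genes in each RNA sample. Dots are means of the dye pair and bars join its 2 arrays. Cfd, Adipoq, Cidec, Retn, Plin4 and Fabp4 were highest among KI tumours in tumour 3, the first 5 of the lower row were highest in tumour 2, and Pdk4 was highest in tumour 1.

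Markers of other cells differed between the same tumours. KI tumour 3 had the highest median among KI tumours for endothelial (2.45), fibroblast (0.28) and preadipocyte (1.53, 9 markers) genes, and KI tumour 2 the lowest for all 3 lists (0.94, −1.48 and −0.52). For secretory and milk fat genes (10), which include lipid synthesis genes of milk-making epithelium, KI tumours 5 and 2 stood highest (2.57 and 2.23) and KI tumour 1 lowest (0.85). For macrophage genes (10), some of which share Fabp4 and Lpl with fat cells, the medians of KI tumours 1 to 5 were 2.80, 0.78, 2.61, 1.85 and 2.83. The part of these cells in the tumours' levels of the adipocyte genes was not tested.

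The NIC pools differed in the same kind of genes. Pool 1 was above pool 2 for 29 of 38 members, where 46.6% of all genes were higher in pool 1, by a median of 0.22. It was at least 1 log2 unit higher for 5 members (Cfd by 4.40, Adipoq by 2.24, Ces1d by 2.03, Rbp4 by 1.08 and Acsl1 by 1.02), and pool 2 was that much higher for 0. For Rbp4 the arrays of pool 1 disagreed by 1.28, more than the pools differed, and for the others by less than the pools differed. The share of all genes at least 1 unit apart between the pools was not computed, so nothing is read from the count. Over all probes the 2 arrays of pool 1 correlated at r = 0.827, less closely than those of pool 2 (r = 0.942). Marker medians of fibroblasts (−0.79 in pool 1 and −1.72 in pool 2), preadipocytes (0.04 and −0.56) and macrophages (2.35 and 1.78) were also higher in pool 1. So were those of endothelium (1.97 and 1.71) and brown fat (0.13 and 0.05). The medians of epithelial (2.43 and 2.92), secretory and milk fat (1.26 and 1.76) and skeletal muscle markers (−0.90 and −0.81) were lower in pool 1. For fibroblast markers the arrays of pool 1 disagreed by up to 2.54 (Lum). The part of these cells was not tested. With only 1 RNA per pool these differences have no replicate check.

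Other genes of the adipocyte, outside the 38 members, gave a mixed picture. They were listed for their known function, but with earlier results of these data known, so their calls are no independent check. Of 48 listed, 47 were measured. In KI tumours 26 were called lower (24.9% of all genes were) and 7 higher (17.8% of all genes were), and in NIC pools 18 were called lower and 5 higher (9.80% and 8.79% of all genes). The median difference was −0.85 in KI tumours and −0.82 in NIC pools. Differences of these genes are tumours minus normal gland unless another pair is named, with the SE and adjusted p of limma over all genes. Without either NIC pool no gene of the array was called in NIC against normal, where 1 pool against 2 glands leaves few degrees of freedom (6400 and 6977 genes had an unadjusted p under 0.05 in limma). In NIC, calls also ended without 1 normal gland for Fabp5 (gland 1, −2.78), Plin3 (gland 1, 1.42, and gland 2, 1.80) and Rxrg (gland 1, −2.46, and gland 2, −2.11). In KI tumours the calls of Cav1, Cebpd, Gk, Hilpda and Adipor1 ended without gland 2 (−3.17, 2.04, 1.32, 0.65 and 0.38) and, Adipor1 aside, without gland 1 (−2.62, 1.58, 1.27 and 0.64). Their calls also ended without single KI tumours, which were tumours 2 to 5 for Cav1, 1 and 3 to 5 for Cebpd, 2, 4 and 5 for Gk, 2 to 4 for Hilpda, and 1, 2, 4 and 5 for Adipor1. Without these the differences were −2.88 to −2.60, 1.69 to 1.77, 1.29 to 1.33, 0.61 to 0.70 and 0.84 to 0.97 in that order of genes. The calls of Lpin3 and Plin3 ended without gland 1 (1.2 and 0.77).

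Among 12 adipogenic regulators 7 were lower and 2 higher in KI tumours, and 5 were lower and 2 higher in NIC pools. Rxrg, a partner of PPARγ, differed by −2.74 ± 0.18 in KI tumours (adjusted p = 9.87e-05) and by −2.29 ± 0.27 in NIC pools (adjusted p = 0.0221). Ebf1, an early factor of the fat lineage, differed by −2.44 ± 0.42 (adjusted p = 0.0035) and by −3.63 ± 0.38 (adjusted p = 0.0187). Against these, Cebpb, a factor that acts early in fat cell formation and also in epithelium and inflammation, was higher. Its levels were between 1.39 and 2.48 in KI tumours and at 1.61 and 1.83 in NIC pools, against −0.53 and −0.54 in normal glands, with differences of 2.45 ± 0.26 (adjusted p = 0.000518) and 2.26 ± 0.12 (adjusted p = 0.00928). Cebpd was also higher in KI tumours (1.81 ± 0.53, adjusted p = 0.0278), and Srebf1, a driver of lipid synthesis genes, in NIC pools (1.64 ± 0.21, adjusted p = 0.0252).

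Of 12 droplet and lipolysis genes 7 were lower and 2 higher in KI tumours, and 4 were lower and 2 higher in NIC pools. Hcar1, a lactate receptor of fat cells that restrains lipolysis, was between −0.03 and 0.07 in KI tumours and at 0.12 and 0.09 in NIC pools, against 3.58 and 3.89 in normal glands. Its differences were −3.73 ± 0.09 (adjusted p = 1.15e-06) and −3.63 ± 0.15 (adjusted p = 0.00794). Plin5 differed by −2.22 ± 0.12 (adjusted p = 4.03e-05) and −1.89 ± 0.15 (adjusted p = 0.0131). Plin3, the droplet coat protein of most cell types, was higher by 0.96 ± 0.22 in KI tumours (adjusted p = 0.0103) and by 1.61 ± 0.26 in NIC pools (adjusted p = 0.0349). Hilpda, a lipase inhibitor induced by low oxygen, was 0.64 ± 0.22 higher in KI tumours (adjusted p = 0.0459).

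Among 12 genes of lipid supply 7 were lower and 2 higher in KI tumours, and 5 were lower and 1 higher in NIC pools. Mogat1, an acyltransferase, differed by −2.92 ± 0.15 (adjusted p = 3.28e-05) and Pcx, pyruvate carboxylase, by −2.92 ± 0.21 (adjusted p = 0.000132) in KI tumours. In NIC pools Gpat3, which starts triglyceride synthesis in fat cells, differed by −4.34 ± 0.19 (adjusted p = 0.00807) and Fabp5 by −3.15 ± 0.39 (adjusted p = 0.0234). Glycerol kinase, Gk, was higher in both KI tumours and NIC pools (1.30 ± 0.41, adjusted p = 0.0387, and 2.16 ± 0.11, adjusted p = 0.0085), and Lpin3 in KI tumours (1.51 ± 0.38, adjusted p = 0.0164).

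Of 11 measured genes of insulin and adipokine signalling 5 were lower and 1 higher in KI tumours, and 4 were lower and 0 higher in NIC pools. Cav1, the caveolin of fat and vessel cells, differed by −2.90 ± 0.96 in KI tumours (adjusted p = 0.0435) and by −4.39 ± 0.22 in NIC pools (adjusted p = 0.0087). KI tumour 1 stood apart for Cav1, at 1.31, against −2.56 to −1.43 in the other KI tumours. Adipor1, an adiponectin receptor found in most tissues, was 0.94 ± 0.29 higher in KI tumours (adjusted p = 0.0335).

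Between the tumour models 2 of these 47 genes were called, both lower in KI tumours. Adora1, an adenosine receptor that restrains lipolysis, was between −0.37 and −0.05 in KI tumours, against 0.81 and 0.78 in NIC pools (−0.96 ± 0.09, adjusted p = 0.0035, limma). The normal glands were at −0.13 and 0.00, so that the NIC pools, 0.86 ± 0.11 above them (adjusted p = 0.0233, limma), were the group apart. Slc27a1, a fatty acid transporter of muscle and fat, was between −1.31 and −1.03 in KI tumours, against −0.47 and −0.31 in NIC pools (−0.79 ± 0.10, adjusted p = 0.00716, limma; −0.71 with adjusted p = 0.0567 without NIC pool 2), and the normal glands were at −0.32 and −0.45.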

How the data were processed

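Each of 9 RNA samples was hybridised against a common reference on 2 dye-swapped arrays. Values deposited by the authors are log2 ratios, with the KI arrays kept apart from the normal and NIC arrays in a separate table. That table is filed under a different array platform record, and spots were matched across both by spot number. The submitters' processing notes name RMA without a role, and no other step is given in the sources used here. KI columns followed their own scanner values at r = 0.982 to 0.988 once turned to tissue over reference, and the other table was assumed to have the same scale and direction. Column interquartile ranges were 0.422 to 0.562 (KI), 0.514 to 0.559 (NIC) and 0.761 to 0.970 (normal), so differences across tables depend on scale. Column medians lay near 0. On 7 KI arrays the labelling protocols name other dyes than the label fields, which were followed. Scanner files of the 10 KI arrays hold, per the file headers, spot intensities and log10 dye ratios from the program Agilent Feature Extraction, release A.7.5.1. They served for naming and choosing probes, for signal over background, and as an alternative (normexp, offset 50, and loess, with 0.509% outlier spots left out).

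Probes (41174, after 2256 control spots were left out) were named through RefSeq GRCm38.p6, 20716 by accession and 10140 by the name in the file alone, and reduced to the brightest on KI arrays per gene. Dye pairs were averaged. limma 3.58.1 in R 4.3.3 (data.table, version 1.17.8; two-sided, Benjamini-Hochberg across the 28919 genes) fitted NIC against normal on 4 RNA samples and the KI contrasts on all 9. In simulated data of 28919 genes it recovered 55% of 2-unit and 75% of 4-unit changes in NIC against normal, 89% and 97% in KI against normal, and 81% and 94% in KI against NIC. The simulation changed only a small share of genes and gave each gene random noise of the same size in all groups. These percentages are therefore not the power in the real data, where far more genes were called. Labels do not say whether samples share an animal or litter, so the p-values cover the spread among these RNA samples, whose number limits the precision.

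The members and lists were chosen with earlier results of these data known. Every member is described by role. Full statistics are given, in KI against NIC, for members called and the 3 largest differences either way. Among the falls from normal gland, the 10 largest and 5 smallest in NIC and the defining genes (Adipoq, Lep, Plin1, Cidec, Pparg and Cebpa) were to be named, and among KI tumours the 5 widest ranges. In the other lists the rule took the 2 called genes with the largest difference per direction and contrast. A gene that this rule took is not reported here. Levels or intervals given beyond these were chosen after their values were seen. Alternatives were scaled columns, all probes averaged, single dyes, bright genes only, 2-group fits, scanner values, a random RNA block and each RNA left out.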

Additional observations from a re-analysis of the deposited data

Results flagged for a closer look

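Among the 5 KI tumours, 7 of the 38 members had 1 tumour far from the others, with a gap over 0.71 of the range (Dixon's criterion, which chance meets in about 1 group in 20). That is 18.4% of members, where 7.12% of all 28919 genes met the same criterion. The members share their tumours, so the 7 are not independent, and the difference in share was not tested. KI tumour 3 was the high one for Rbp4 (−1.14), Plin4 (−0.015), Ces1d (0.30), Gys2 (0.24) and Cyp2e1 (0.50). KI tumour 2 was high for Hsd11b1 (1.98) and low for Aoc3 (1.10). For Gys2 and Cyp2e1 the other 4 tumours lay close to the reference, where the array signal was low.

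The difference between KI tumours and NIC pools was itself past the threshold for Pdk4 (4.10) and Slc2a4 (1.07), both higher in KI tumours by limma's fit of all 9 RNA samples.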

How the results depend on the processing

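No called difference reported between KI and NIC or for the other adipocyte genes changed direction, while Fabp4 against normal gland turned with the dye, and the member median between KI and NIC, close to 0, fell on either side of it. The median member difference from normal gland became −1.81 (KI) and −2.14 (NIC) with all columns scaled to 1 spread, −2.72 and −2.87 with the tissue in Cy3, and −4.26 and −4.66 in Cy5. Members called lower in NIC were 15 in Cy3 and 17 of 21 among genes above the median signal, where 19 of 21 were called in KI. Leaving out 1 RNA sample gave 31 to 35 called in KI and 0 to 31 in NIC, with medians of −3.58 to −3.24 and −3.98 to −3.50. The count was 0 without either NIC pool, where 1 pool against 2 glands left few degrees of freedom (6400 and 6977 genes at an unadjusted p under 0.05). With all remaining samples in 1 fit, added after seeing the data, it was 29 to 32. Between KI and NIC the members called were 1 after scaling, 0 in Cy5, 1 among brighter genes, 0 with only these groups fitted, 4 with all arrays and RNA as a random block, and 0 to 2 with 1 sample left out (0 without NIC pool 1 or KI tumour 4), with medians of −0.14 to 0.071. Of the other adipocyte genes (alternatives chosen after seeing the data), 12 were called in NIC against normal in Cy3 and 0 to 27 with 1 sample left out, and 25 to 32 in KI against normal. Between KI and NIC they were 5 with all probes averaged, 6 in Cy5, 1 among brighter genes, 4 with 2 groups, 9 from scanner values, 8 with the block, and 1 to 4 with 1 sample left out. The cause was not tested. No paired analysis was possible because the groups share no numbered animals or batches. KI tumour 3 had the highest member median in all 6 settings tried, and the order of the others changed. The scanner headers date the KI arrays to 2 extraction days, and 1 setting left out the 2 arrays of the smaller day. That setting changed only KI tumours 2 and 3. The median of KI tumour 2 went from 0.098 to 0.024, below KI tumour 1 (0.028), and that of KI tumour 3 from 0.309 to 0.314.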
